A study of Mus musculus with 8 samples.

Results

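Chromatin accessibility was compared between mouse CD4 T cells that lacked Tet1 and Tet3 and had received IL-2 (cDKO plus IL-2, 2 libraries) and control cells that had not (control, 2 libraries), 4 of the 8 libraries of the series. The question was how far added IL-2 leaves knockout chromatin from control chromatin. The assay was ATAC-seq, which marks open chromatin by where a transposase can cut in its adapters. The cDKO plus IL-2 cells carried a conditional deletion of Tet1 and Tet3 (Tet1/3 cDKO) and were cultured with 20 ng/mL TGF-β and 100 U of IL-2. The control cells, labelled WT, were cultured with 20 ng/mL TGF-β and no added IL-2. Both groups were naive CD4 T cells sorted from spleen, activated through CD3 and CD28 by antibodies and harvested at 48 h, with 90000 cells per library. Genotype and added IL-2 therefore changed together, and the 4 libraries cannot tell them apart. The other 4 libraries, 2 of cDKO cells with TGF-β alone (cDKO) and 2 of control cells with TGF-β and IL-2 (control plus IL-2), were read beside each result. The sources used here do not give the Cre driver, the deleted exons, the strain or the age of the animals. The design text calls the replicates biological, but the animals behind them are not given. The permutation p-values below place the group labels among the possible splits of these 4 libraries, and they cover libraries and not animals.

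TET proteins oxidise methylated cytosine in DNA, which leads to the loss of methylation at promoters and enhancers. In T cells they are known for keeping enhancers of the regulatory T cell factor Foxp3 free of methylation. TGF-β together with T cell receptor signalling drives naive CD4 T cells toward induced regulatory T cells. IL-2 acts through its receptor and STAT5 to favour Foxp3 and to promote growth and effector programs.

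The cDKO plus IL-2 lists held 96752 and 115250 peaks as deposited, and the control lists held 145979 and 92488. The lists do not state read depth, and its part in any difference was not tested. Each list was cut to its 65811 strongest peaks by −log10 p, the length of the shortest list of the series, and peaks of all 8 deposited lists were merged into 175276 union regions where they overlapped by at least 1 bp. A region's rank below is the place of its best peak in a library's list, with rank 1 the strongest, and a list below is the list of 65811 peaks unless it is called deposited. All 5 CD4 T cell markers (Cd4, Cd3d, Cd3e, Cd28 and Thy1) had a listed region at a gene end in all 4 libraries. Of 4 regulatory T cell markers, 3 had such a region in each cDKO plus IL-2 library, against 3 and 4 in the control libraries. Foxp3 had one in control replicate 2 alone, at rank 47138. That region is not among those assigned to Foxp3 below. The gene-end region that is assigned to Foxp3, chrX:7578832-7579840, was in none of the 4 lists. Of 4 B cell markers, 1 (Cd79a) had a region in every library, and neither NK cell marker had one in any. Of 2 CD8 T cell markers both had one in each cDKO plus IL-2 library and 1 in each control library, and of 4 erythroid markers 3 had one in each cDKO plus IL-2 library and 2 in each control library. Of the 4 myeloid markers Itgam and Spi1 had one in all 4 libraries while Lyz2 and Csf1r had none.

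Most of the open chromatin was shared. Of 68051 regions listed by at least 2 of the 4 libraries, 47066 were listed by all 4. A region was called higher in cDKO plus IL-2 cells when both cDKO plus IL-2 lists and neither control list held it, and lower in the reverse case. By that rule 3170 regions were higher (4.66% of those tested) and 3931 were lower (5.78%). In the full deposited lists the split was more uneven, with 2243 regions higher (2.01% of 111360) and 6287 lower (5.65%). Among regions listed by exactly 2 of the 4 libraries, 27.8% were higher, 34.5% were lower and the other 4292 were held by 1 library of each group. These are listing calls over 2 libraries a group and carry no p-value. In bulk cells, a smaller number of cells with an open region and less openness per cell cannot be told apart.

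Libraries of cDKO plus IL-2 and of cDKO cells had nearly the same mean likeness to the control libraries, and their ranges overlapped. The Jaccard index, the regions shared by a pair of libraries divided by the regions in either, averaged 0.709 over the 4 pairs of a cDKO plus IL-2 and a control library (range 0.700 to 0.726). The pairs of a cDKO and a control library averaged 0.708 (range 0.700 to 0.715), and those of a control plus IL-2 and a control library averaged 0.714 (range 0.680 to 0.765). Of the last, replicate 1 of control plus IL-2 gave 0.765 and 0.728. Its replicate 2, the shortest list of the series, gave 0.680 and 0.682, and its weakest peak had a −log10 p of 3.25, against 9.94 in replicate 1. By the calling rule above, 6.94% of tested regions were called between control plus IL-2 and control. That share was 10.4% for cDKO plus IL-2 and 11.3% for cDKO, each against control. Replicates reached 0.780 within cDKO plus IL-2 and 0.756 within control, so in these lists every pair across the comparison was below the replicate pairs of both groups. The replicates of control plus IL-2 reached 0.713, below the highest of those pairs. In the deposited lists, which differ in length, the control replicates reached 0.599 and the 4 pairs across the comparison lay between 0.569 and 0.664, so they overlapped. The index between cDKO plus IL-2 and cDKO averaged 0.746 and that between cDKO plus IL-2 and control plus IL-2 averaged 0.688. All these sets of pairs share libraries, so no test of their difference was made.

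**Figure D1:**
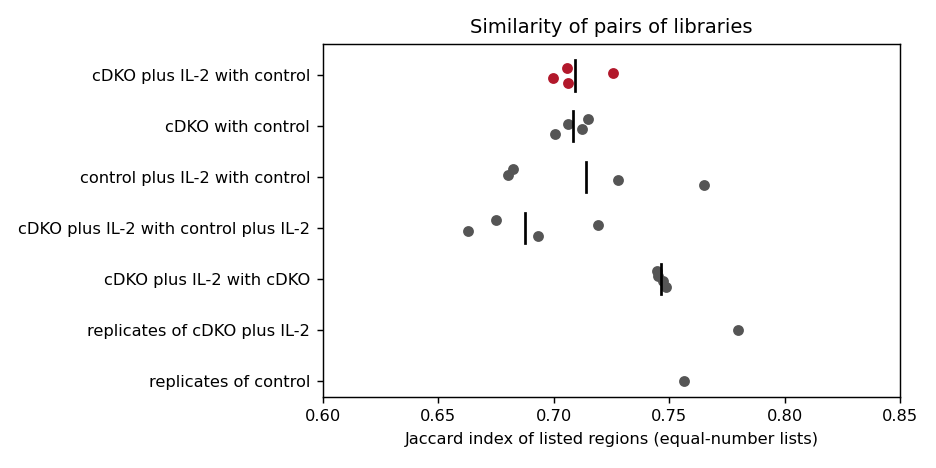
Jaccard index (x axis, no unit) of each pair of libraries in the equal-number lists, with each point a pair and each bar the mean of its row. The cDKO plus IL-2 with control pairs (red) lie between 0.700 and 0.726, left of the replicate pairs of the same 2 groups at 0.780 and 0.756.

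Gene ends, which hold promoters, made up more of the higher than of the lower regions. Of the higher regions 11.1% (352) lay within 1 kb of a gene end, against 3.92% (154) of the lower regions. Regions held by 1 library of each group stood at 7.99% and regions held by all 4 at 25.1%. Over whole lists the share at gene ends was 21.6% and 20.8% in the cDKO plus IL-2 libraries, against 19.9% and 20.4% in the control libraries. The cDKO plus IL-2 libraries were both above both control libraries, with a difference in means of 1.06 percentage points and an exact 2-sided permutation p of 0.333, the smallest that 2 against 2 libraries allow. The share of regions over 100 kb from any gene averaged 5.95% in cDKO plus IL-2 and 6.13% in control, with the same exact permutation p of 0.333. Median widths were 334 bp for higher and 326 bp for lower regions, against 312 bp for regions held by 1 library of each group and 602 bp for regions in all 4 lists.

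Promoter windows were called when a called region overlapped them by at least 1 bp. The 4 windows below were the strongest called ones, 2 of each direction, and as single examples they do not show a clean divide. They are RefSeq sequences on GRCm38.p6, read on the gene's own strand from 250 bases before to 50 bases after its annotated start. Capitals mark each CG, the dinucleotide that TET and DNA methyltransferase enzymes act on, and each TGANTCA, the AP-1 motif. The higher pair are the windows of 2410018L13Rik (chr12:23010194-23010493, minus strand) and Pde6h (chr6:136954273-136954572, plus strand). The lower pair are the windows of Gm31279 (chr6:50503445-50503744, plus strand) and Egfros (chr11:16830629-16830928, minus strand).
2410018L13Rik: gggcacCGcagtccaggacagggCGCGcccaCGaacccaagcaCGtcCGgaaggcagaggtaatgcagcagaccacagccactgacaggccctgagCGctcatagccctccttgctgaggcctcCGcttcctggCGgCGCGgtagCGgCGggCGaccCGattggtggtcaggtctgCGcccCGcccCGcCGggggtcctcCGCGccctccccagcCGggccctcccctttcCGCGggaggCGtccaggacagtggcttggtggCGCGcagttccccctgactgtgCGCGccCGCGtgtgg
Pde6h: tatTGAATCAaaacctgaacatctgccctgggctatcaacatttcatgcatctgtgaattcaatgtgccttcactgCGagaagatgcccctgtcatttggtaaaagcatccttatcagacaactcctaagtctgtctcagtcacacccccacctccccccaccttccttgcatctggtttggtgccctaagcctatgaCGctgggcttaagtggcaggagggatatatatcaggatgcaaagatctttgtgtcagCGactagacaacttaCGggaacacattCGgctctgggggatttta
Gm31279: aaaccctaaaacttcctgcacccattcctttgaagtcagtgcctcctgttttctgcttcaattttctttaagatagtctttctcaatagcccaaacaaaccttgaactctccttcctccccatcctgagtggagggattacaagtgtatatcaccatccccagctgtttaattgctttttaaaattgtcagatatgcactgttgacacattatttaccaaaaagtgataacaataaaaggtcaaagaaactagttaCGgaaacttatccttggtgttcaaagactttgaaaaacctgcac
Egfros: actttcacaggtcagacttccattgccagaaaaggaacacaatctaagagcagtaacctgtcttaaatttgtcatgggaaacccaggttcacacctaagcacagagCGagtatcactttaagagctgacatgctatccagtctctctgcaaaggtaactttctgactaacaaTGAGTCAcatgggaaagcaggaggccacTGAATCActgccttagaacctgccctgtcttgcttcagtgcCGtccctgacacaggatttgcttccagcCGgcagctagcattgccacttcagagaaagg
The window of 2410018L13Rik holds 31 CG and no AP-1 motif, and that of Pde6h holds 5 CG and 1 AP-1 motif. The window of Gm31279 holds 1 CG and no AP-1 motif, and that of Egfros holds 3 CG and 2 AP-1 motifs. The 2410018L13Rik region ranked 21831 and 27915 in the cDKO plus IL-2 lists and was in neither equal-number control list. The Gm31279 region was in neither cDKO plus IL-2 list and ranked 21977 and 32733 in the control lists. This region, chr6:50502987-50503486, overlaps only the start of its window and does not reach its CG. The Egfros region was also in neither cDKO plus IL-2 list and ranked 30939 and 35761 in the control lists.

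Over all called promoter windows, those under higher regions held more CG than those under lower regions, which often held AP-1 motifs. Windows under all tested regions had a median of 21 CG. The median CG count was 18 in the 185 windows under higher regions and 4 in the 60 under lower regions, against 22 in the 12702 windows under regions of all 4 lists and 7 in all 32817 windows. TGANTCA, which reads the same on both strands and is bound by Fos, Jun and Batf proteins, was in 4.32% of higher windows (8) and 30% of lower windows (18). It was in 8.64% of the 162 windows held by 1 library of each group, in 4.80% of windows under regions of all 4 lists and in 7.81% of all windows. The motif was in 10.9% of all windows with under 10 CG and 3.83% of the others, so windows with under 10 CG were also read alone. There 6.25% of 48 higher windows held it, against 34.0% of 47 lower windows and 16.2% of the 68 held by 1 library of each group. That limit of 10 CG was chosen after the values were seen. Without control replicate 1 the share in all lower windows was 19.3%, and without each other library it was between 21.7% and 24.8%.

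The motif itself lay inside the called region for 19 of 20 sites in lower windows. In higher windows it did for 6 of 7 sites. These counts do not cover every window with the motif. The Pde6h site printed above, near the start of its window, was not among the 7, and it lies inside its called region. A site of each of 5 genes with lower windows, chosen after their values were seen, is shown with 7 bases on each side and the motif in capitals, on the gene's strand in GRCm38.p6.
Pla2g2e: gttcctaTGACTCAtggtttg
Sdcbp2: tccacggTGAGTCAgctgaac
Bpifc: gctgagaTGACTCAgacttaa
Hdac7: gagcagcTGAGTCActcagta
Cyth1: ggcgagaTGACTCAgtgctgt
The Pla2g2e site shown, the first of 2 in its window, is at chr4:138877848-138877868 (plus strand), the Sdcbp2 site at chr2:151572572-151572592 (plus strand) and the Bpifc site at chr10:86011898-86011918 (minus strand). The Hdac7 site is at chr15:97814828-97814848 and the Cyth1 site at chr11:118212949-118212969, both on the minus strand. Hdac7 encodes a histone deacetylase that T cells use during thymic selection, and its region ranked 58621 and 42469 in the control lists and was in no other list of 65811 peaks. Pla2g2e encodes a secreted phospholipase, and its region ranked 33008 and 36492 in the control lists and was in neither cDKO plus IL-2 list. The region at Cyth1, which encodes a guanine nucleotide exchange factor for ARF proteins, ranked 60248 and 59628 in the control lists and was also in neither cDKO plus IL-2 list. A match is a description of the letters and not of binding.

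The other motifs were searched on both strands. GGGCGG, the SP and KLF motif, was in 57.3% of higher windows and 13.3% of lower windows, against 65.2% of the 13652 windows under regions tested and 35.6% of all windows. CCGGAA, the ETS motif, was in 13.5% of higher and 6.67% of lower windows, against 27.9% of windows under regions tested and 14.9% of all, so both directions were below the tested regions for these motifs. TGTGGT, the RUNX motif, was in 13.5% of higher and 23.3% of lower windows, against 12.4% under regions tested and 16.8% of all. TTCNNNGAA, the STAT motif, was in 6.49% of higher and 6.67% of lower windows, against 6.64% under regions tested and 8.29% of all, and CTTTGAT, the TCF and LEF motif, was in 2.16% of higher and 3.33% of lower windows, against 2.47% under regions tested and 3.73% of all.

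**Figure D2:**
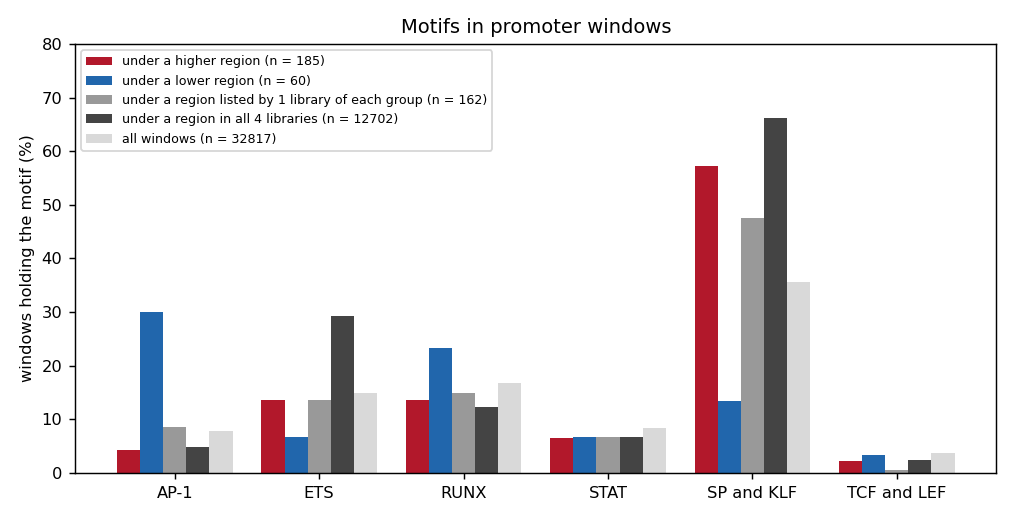
Percent of promoter windows (y axis) that hold each of 6 motifs (x axis), by the kind of region over the window, with the number of windows in the legend. The AP-1 bar of lower windows is at 30%, against 4.32% for higher windows, and the SP and KLF bars are at 13.3% for lower and 57.3% for higher windows.

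Some called regions were in no deposited list of the other group at any rank. Of the higher regions 146 (0.215% of regions tested) were in no deposited control list, and of the lower regions 644 (0.946%) were in no deposited cDKO plus IL-2 list. The 2 groups' deposited lists differ in length, and with every list cut to the 92488 peaks of the shortest of the 4 these counts were 695 (1.02%) and 1154 (1.7%). By rank the called regions were mostly weak. The median rank in the weaker of their 2 libraries was 57552.5 for higher and 56429 for lower regions, and 66 higher (2.08%) and 151 lower regions (3.84%) were among the 32905 strongest peaks of both lists.

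Among the higher regions that no deposited control list held, the strongest lay near Bcat1, which encodes the cytosolic branched-chain aminotransferase. This region, chr6:145093014-145093770, is 17.2 kb from the gene and ranked 5020 and 11043 in the cDKO plus IL-2 lists. It ranked 4898 and 5829 in the cDKO lists and was in neither control plus IL-2 list, so it was strong in all 4 libraries without Tet1 and Tet3 and unlisted in all 4 with them. Bcat1 held 6 higher regions and no lower ones of 17 tested.

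The region inside Pde6h, which encodes an inhibitory subunit of a photoreceptor phosphodiesterase, lies at chr6:136953831-136954508. It ranked 20156 and 30543 in the cDKO plus IL-2 lists and 20409 and 31852 in the cDKO lists, and was in no list of either control group. The region near Hrh1, the histamine H1 receptor gene, at chr6:114553099-114553348 ranked 22881 and 29289 in the cDKO plus IL-2 lists. It also ranked 33254 and 25420 in the cDKO lists and was in neither equal-number list of the control plus IL-2 or the control cells. The same listing held for the regions at Atg7, which acts in autophagy, Gucy2c, a guanylate cyclase receptor, Lrmp, a lymphoid membrane protein, Ganc, a glucosidase, and Epb41l1, a cytoskeletal protein. Thus 8 of the 12 strongest such regions were in both cDKO lists and in neither control plus IL-2 list, and 8 of the 12 were on chromosome 6.

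Other strong regions of this kind were in neither cDKO list of 65811 peaks, though the deposited cDKO lists held weak peaks there. The region near Nedd1, which recruits tubulin to the centrosome, at chr10:92651659-92651971 ranked 42679 and 27141 in the cDKO plus IL-2 lists and was in no other list of 65811 peaks, with a cDKO peak at 98285 of the replicate 2 deposited list. The region at the gene end of Abcc10, a drug transporter, at chr17:46302990-46303581 ranked 43229 and 42602 there and stood at 77088 and 71235 in the deposited cDKO lists. The region near Strap, whose product binds TGF-β receptors, at chr6:137694025-137694724 ranked 39023 and 37016 in the cDKO plus IL-2 lists and stood at 72498 and 68967 in the deposited cDKO lists.

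Among the lower regions that no deposited cDKO plus IL-2 list held, the strongest lay near Med21, a subunit of the Mediator complex. It is at chr6:146671361-146671917 and ranked 20359 and 21276 in the control lists and 16259 and 17615 in the control plus IL-2 lists. Next came a region inside Rbm4, a splicing factor, at chr19:4785331-4785703, which ranked 21854 and 24553 in the control lists. A region near Otud7a, a deubiquitinase, at chr7:63777390-63777778 ranked 22505 and 24866 there. The Rbm4 region ranked 26441 and 58759 and the Otud7a region 15713 and 33303 in the control plus IL-2 lists, and no cDKO list of 65811 peaks held any of the 3 regions.

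All 12 of the strongest such lower regions were in both control plus IL-2 lists and in neither cDKO list of 65811 peaks, and 5 of the 12 were on chromosome 6. Of all 644 such lower regions, 206 had that listing, and 149 were in the control lists of 65811 peaks alone. The 12 included regions at the kinase gene Stk38l (chr6:146702238-146702933), the succinate receptor gene Sucnr1 (chr3:60134979-60135393), the autophagy gene Uvrag (chr7:99003260-99003683) and the forkhead factor gene Foxj3 (chr4:119625207-119625562). The Sucnr1 region ranked 27005 and 19514 in the control lists and 19742 and 37231 in the control plus IL-2 lists. The Foxj3 region ranked 22363 and 28906 in the control lists and 42860 and 32165 in the control plus IL-2 lists. Lrmp, named above for a higher region, was also among these 12 lower ones. Its lower region, chr6:145137522-145137993, ranked 21848 and 26029 in the control lists, and the gene held 5 higher and 1 lower of 13 tested regions.

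**Figure D3:**
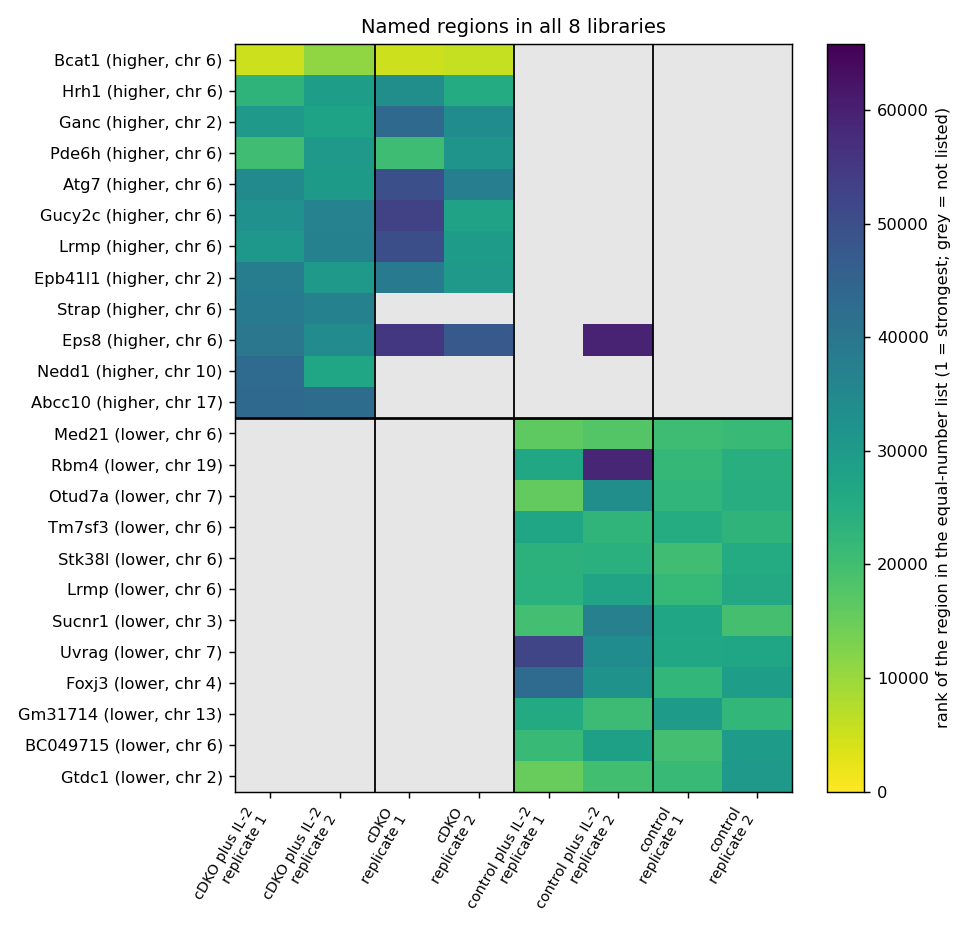
Rank of the 12 strongest higher and the 12 strongest lower regions absent from every deposited list of the other group (rows, named by gene), in all 8 libraries (columns), with yellow for the strongest ranks and grey for not listed in the equal-number list. The left 2 columns are cDKO plus IL-2 and the right 2 are control, and 8 of the 12 higher rows are also filled in both cDKO columns and in neither control plus IL-2 column, while all 12 lower rows are filled in both control plus IL-2 columns.

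Some called regions ranked still higher but had a weak peak deep in a deposited list of the other group, and they are named here after their values were seen. The lower region near Otud7a at chr7:63802725-63803274 ranked 2463 and 2582 in the control lists and 2891 and 5838 in the control plus IL-2 lists. Its only cDKO plus IL-2 peak was at rank 87074 of the replicate 2 deposited list. It was the strongest called region of either direction.

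A lower region inside Prkcq, which encodes the kinase that relays T cell receptor signals to NF-κB, at chr2:11181557-11181897 ranked 9520 and 14492 in the control lists. In the deposited cDKO plus IL-2 lists it stood at 74271 and 83429, and in the cDKO lists at 62419 and 60916, so it was weak but listed without Tet1 and Tet3. A higher region inside Nceh1, a cholesterol ester hydrolase gene, at chr3:27233991-27234577 ranked 14291 and 11273 in the cDKO plus IL-2 lists. In the deposited control lists it stood at 77806 and 90493.

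Read across all 4 groups, the lower regions were more often missing from the cDKO lists than present in them, and were often listed in control plus IL-2. Of the lower regions 57.3% (2254) were in neither cDKO list and 42.9% (1687) were in both control plus IL-2 lists. Both held for 1073 lower regions (27.3%), which were then listed in all 4 control libraries and no knockout library. Of the higher regions 42.1% (1334) were in both cDKO lists and 46.6% (1478) were in neither control plus IL-2 list, and both held for 677 (21.4%). Regions held by 1 cDKO plus IL-2 and 1 control library give the scale of these shares, with 32.9% in both cDKO lists, 35.9% in neither, 24.8% in both control plus IL-2 lists and 40.2% in neither.

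Smaller classes were listed along the IL-2 axis or in a single group. In both control plus IL-2 lists and no cDKO list were 334 higher regions (10.5%). In the reverse pattern, both cDKO lists and no control plus IL-2 list, were 220 lower regions (5.60%). Held by the cDKO plus IL-2 lists alone were 396 higher regions (12.5%), and held by the control lists alone were 435 lower regions (11.1%). Missing from the control lists alone were 210 higher regions (6.62%), and missing from the cDKO plus IL-2 lists alone were 245 lower regions (6.23%). The remaining 1553 higher (49.0%) and 1958 lower regions (49.8%) were listed by 1 library of at least 1 of the other groups.

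**Figure D4:**
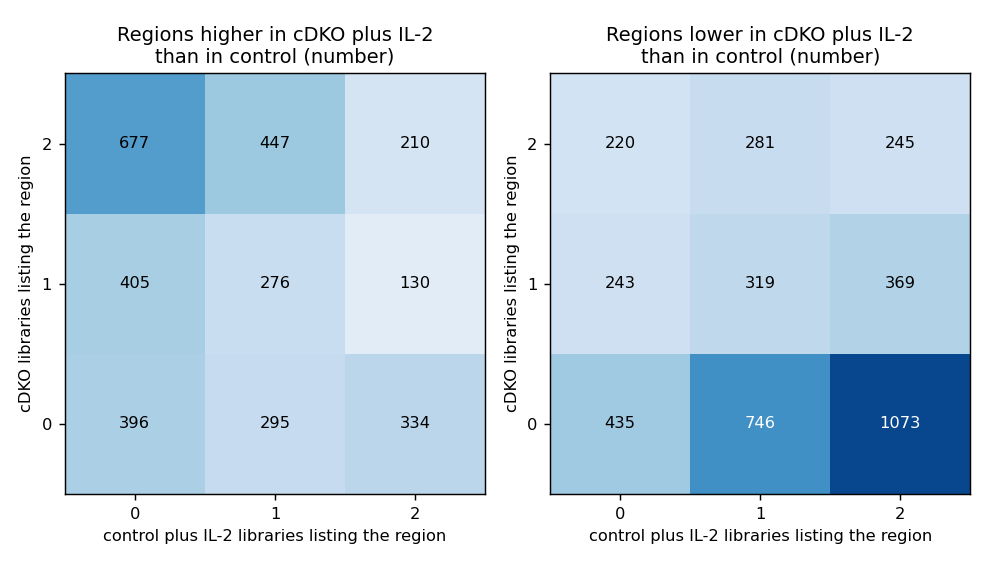
Number of regions higher (left) and lower (right) in cDKO plus IL-2 than in control, by how many cDKO libraries (y axis) and control plus IL-2 libraries (x axis) also listed them. The fullest cells are 677 higher regions in both cDKO and no control plus IL-2 library and 1073 lower regions in no cDKO and both control plus IL-2 libraries.

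The class missing from the control lists alone differed in position from the other classes of higher regions. Of its 210 regions 21.0% (44) were at gene ends, and the 30 promoter windows under them had a median of 27.5 CG. In the class listed in all knockout and no control library, 7.39% of regions were at gene ends. The 21 promoter windows under that class had a median of 6 CG, and 3 of them held the AP-1 motif, so they were not rich in CG. Examples of the class missing from the control lists alone, named after their values were seen, are the Nceh1 region above and a region 11.7 kb from Runx3. Runx3 is the T cell factor of the cytotoxic lineage. The Runx3 region, chr4:135108457-135109382, ranked 15591 and 18649 in cDKO plus IL-2, 27332 and 28202 in cDKO, and 45608 and 29090 in control plus IL-2 lists, and in the control cells it was at 70186 of the replicate 1 deposited list and in no replicate 2 list.

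Examples of the single-group classes, also named after their values were seen, include receptor and metabolic genes. A region at Klri2, a killer cell lectin-like receptor gene, at chr6:129743280-129743842 ranked 23103 and 16733 in cDKO plus IL-2 and was in no other list of 65811 peaks. A region at Scap, which escorts the SREBP factors of sterol synthesis, at chr9:110339981-110340359 ranked 32285 and 25925 there. It stood at 65866 and 67629 in the deposited cDKO lists, just past the cut, and at 80774 and 90125 in the deposited control lists. In the control lists alone, a region at Aco1, the cytosolic aconitase and iron sensor, at chr4:40163824-40164023 ranked 38635 and 33205. It had a cDKO plus IL-2 peak at 77805 of the replicate 1 deposited list.

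Chromosome 6 held more calls per tested region than the other chromosomes as a whole. It held 5.44% of the regions tested but 24.7% (36) of the higher regions absent from deposited control lists and 9.78% (63) of the lower regions absent from deposited cDKO plus IL-2 lists. With the lists cut to 92488 peaks these shares were 11.5% (80 of 695) and 8.15% (94 of 1154). Beyond 100 Mb, 15.9% of its 1514 tested regions were called, with 124 higher and 116 lower. Up to 100 Mb 125 of 2191 tested regions were higher and 138 were lower, and on the other chromosomes 10.3% of 64346 were called. Tet3, a deleted gene, lies on the same chromosome at chr6:83362373-83457208. From 80 to 90 Mb, the stretch that holds Tet3, 12.8% of tested regions were called. That share was 24.6% from 130 to 140 Mb and 20.6% from 140 to 150 Mb. On chromosome 10, which holds Tet1, the other deleted gene, 4.26% of tested regions were higher and 5.80% were lower. A link of the calls to either deleted gene was not tested. Without chromosome 6, 2921 regions were higher and 3677 were lower.

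Called regions near Hrh1 and Atg7 formed a run, noticed after the values were seen. From chr6:114497133 to chr6:114629569, over 132 kb, all 16 tested regions were higher and none was in all 4 lists. The cDKO plus IL-2 lists held 20 and 18 regions of this stretch and the cDKO lists held 19 and 17. The control plus IL-2 lists held 0 and 4 and the control lists held 0 and 1. In the deposited lists the counts were 37 and 50 in cDKO plus IL-2 cells, against 23 and 7 in control cells, so weak peaks were present there in both control libraries. Of the 16 higher regions 12 were in both cDKO lists, and none was in an equal-number control plus IL-2 list.

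Called regions were also counted per gene, without regard to gene length or to the number of regions tested. Over all tested regions 10.4% were called. Lpp, a focal adhesion gene, held 1 higher and 11 lower of 58 tested regions. Nav2, a cytoskeletal gene, held 1 higher and 10 lower of 38. After these came Hrh1 with 9 higher and 0 lower of 11, Atg7 with 8 and 1 of 30, Tnr, a matrix protein gene, with 8 and 1 of 25, and Foxp1, a factor of T cell quiescence, with 1 and 8 of 62. The called share was 20.7% at Lpp, 28.9% at Nav2, 81.8% at Hrh1, 30% at Atg7, 36% at Tnr and 14.5% at Foxp1. Several are long genes, with Nav2 at 651 kb, Lpp at 599 kb, Foxp1 at 597 kb and Tnr at 408 kb, against 85.4 kb for Hrh1. Of the 509 genes with at least 3 calls, 46 had higher calls alone, 108 lower calls alone and 355 both.

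The deleted genes and the IL-2 pathway genes were mostly open in every library. Tet1 was assigned 8 and 9 regions in cDKO plus IL-2 lists and 7 and 9 in control lists, and 1 of 9 tested regions was lower. Tet3 was assigned 11 and 11 regions in cDKO plus IL-2 lists and 12 and 10 in control lists, with 1 of 12 tested higher and 1 lower. The counts overlap between the groups at both genes, and as the deleted exons are not given these regions do not check the deletion.

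Tet2, the TET gene outside the deletion, was assigned 16 and 16 regions in cDKO plus IL-2 lists and 13 and 11 in control lists. How many other genes have counts as far apart was not computed. The cDKO lists held 14 and 15 and the control plus IL-2 lists 15 and 16, so the control cells without IL-2 were the lowest of the 4 groups. These counts depend on the cut, as a further Tet2 region, chr3:133581605-133581913, stood at 66212 of the deposited control replicate 2 list. Of its 16 tested regions 3 were higher and 0 lower, and each of the 3 had a peak in a deposited control list. The strongest, chr3:133518707-133519333 inside the gene, ranked 29449 and 29248 in cDKO plus IL-2 lists and 29405 and 27126 in cDKO lists. In control cells it lay at 122550 and 71227 of the deposited lists. A further region in Tet2, chr3:133542150-133542386, ranked 52091 and 33139 in cDKO plus IL-2 lists and 29551 and 35216 in control plus IL-2 lists, and it was in neither the cDKO nor the control lists.

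Foxp3 had 1 tested region, inside the gene at chrX:7586226-7586968, and all 4 lists held it. It ranked 43843 and 50327 in cDKO plus IL-2 lists and 57717 and 47592 in control lists, so the groups overlapped. Il2ra encodes the alpha chain of the IL-2 receptor and was assigned 16 and 14 regions in cDKO plus IL-2 lists and 16 and 16 in control lists, and 13 of its 17 tested regions were in all 4. Its higher region, chr2:11641332-11641586, ranked 58947 and 51428 in cDKO plus IL-2 lists and 25923 and 34388 in control plus IL-2 lists. Its lower region, chr2:11657724-11658003, ranked 65346 and 49579 in control lists and 42525 and 45280 in cDKO lists.

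Il2 itself had fewer regions. It was assigned 6 and 6 regions in cDKO plus IL-2 lists and 8 and 8 in control lists, and 2 of its 8 tested regions were lower. The lower region at its gene end, chr3:37125756-37126075, ranked 38215 and 53339 in the control lists and was in no deposited list of either IL-2-treated group. In the cDKO lists it lay at 81976 and 73205 of the deposited peaks. The other, chr3:37171000-37171772, 45.4 kb away, ranked 50624 and 45531 in control lists and 56741 and 44931 in control plus IL-2 lists.

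Regulatory T cell and IL-2 and STAT5 genes had calls in both directions near the background. In the deposited lists lower calls outnumbered higher ones over all regions, with 2.01% higher and 5.65% lower, and the deposited counts below are to be read against these shares. No gene list had more higher than lower calls there. Of 257 tested regions of regulatory T cell genes 10 were higher (3.89%) and 14 were lower (5.45%). Lrrc32, which displays latent TGF-β on regulatory T cells, had 3 higher regions, and the strongest, chr7:98523879-98524347, ranked 38838 and 52504 in cDKO plus IL-2 lists. Cd83 had 3 higher and 1 lower. Among lower regions, Il1rl1, the IL-33 receptor, had 3, the inhibitory receptor Ctla4 had 2, and the region of the costimulator Icos at chr1:61016576-61017078 ranked 41484 and 41907 in control lists. Of 223 regions of IL-2 and STAT5 genes 12 were higher (5.38%) and 13 lower (5.83%). The cytokine gene Lif had 3 higher regions, and Myc, a growth-promoting transcription factor gene, had 1 higher and 3 lower. The survival gene Bcl2 had 2 higher and 1 lower, and that lower one, chr1:106700616-106701217, ranked 46264 and 44028 in control lists and was in no deposited cDKO plus IL-2 list.

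TGF-β pathway genes had 12 of 255 regions higher (4.71%) and 14 lower (5.49%). Smad3, a signal transducer of the pathway, had 2 higher and 3 lower, and its lower region at chr9:63711891-63712286 ranked 24021 and 46535 in control lists. The receptor gene Tgfbr2 had 2 lower regions and no higher one, and chr9:116101738-116102184 ranked 37601 and 38312 in control lists. The repressor gene Ski had a lower region at chr4:155195248-155195572, at 43744 and 43766 in control lists, and a higher region that both control plus IL-2 lists also held. DNA methylation genes had 7 of 113 regions higher (6.19%) and 5 lower (4.42%), and 3 of the 7 were the Tet2 regions. In the deposited lists they had 1 higher and 10 lower of 167.

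Naive and memory T cell genes leaned to the lower side. Of their 384 tested regions 18 were higher (4.69%) and 30 were lower (7.81%), and in the deposited lists 6 were higher and 51 lower of 616. Lef1, a factor of naive T cells that acts downstream of Wnt, had 1 higher and 4 lower. Its strongest lower region, chr3:131093748-131094060, lay 16.4 kb from the gene and ranked 12813 and 17277 in control lists and 18661 and 28071 in control plus IL-2 lists.

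Other members of the same list also had several lower calls. Foxp1 had 8 lower regions, and chr6:99359883-99360338 ranked 41102 and 45058 in control lists. The integrin gene Itga6 had 1 higher and 4 lower. Satb1, a chromatin organiser of T cells, had a lower region at chr17:51779990-51780251 that ranked 40583 and 39462 in control lists and was in no deposited cDKO plus IL-2 list. Members also had higher calls. Bach2, a repressor that keeps T cells from effector fates, had 4 in each direction, and its higher region at chr4:32330710-32331275 ranked 25401 and 24382 in cDKO plus IL-2 lists. Ccr7, the lymph node homing receptor, had a higher region at chr11:99136348-99137135 that ranked 40289 and 33082 in cDKO plus IL-2 lists and 31570 and 31887 in cDKO lists.

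Genes of Th1 and cytotoxic cells leaned to the higher side in the equal-number lists. Of 158 tested regions 14 were higher (8.86%) and 3 lower (1.90%). In the deposited lists 4 were higher and 9 lower of 227, at 0.875 and 0.702 times the shares over all regions there. Eomes, a T-box factor of cytotoxic and memory cells, had 3 higher regions, and the strongest, chr9:118405075-118405736, lay 72.8 kb away and ranked 32541 and 23042 in cDKO plus IL-2 lists. Tbx21, the Th1 master factor, named after its values were seen, had 4 higher of 7 tested regions, at ranks from 46744 to 65318, and neither cDKO list held any of them.

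Fasl, the death ligand, and the IL-12 receptor gene Il12rb1 also had higher calls. The Fasl region at chr1:161779104-161779421 ranked 35963 and 37377 in cDKO plus IL-2 lists. The gene-end region of Il12rb1 at chr8:70808314-70808533 ranked 41644 and 37511 there. Il12rb2, the partner chain, had a lower region at chr6:67302045-67302776 that ranked 24766 and 36027 in control lists. CD8 and NK cell genes also had calls on the higher side, with 3 of 27 regions higher (11.1%) and 0 lower. In the deposited lists 1 was higher and 2 lower of 43, at 1.15 and 0.824 times the shares over all regions there. The 3 higher regions were at Cd244a, Cd8a and Cd8b1, and the Cd8a gene-end region ranked 60289 and 55147 in cDKO plus IL-2 lists and was in neither control list, while Ncr1 and Klrb1c had no gene-end region in any of the 4 libraries. The part of CD8 T cells in these calls was not tested.

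**Figure D5:**
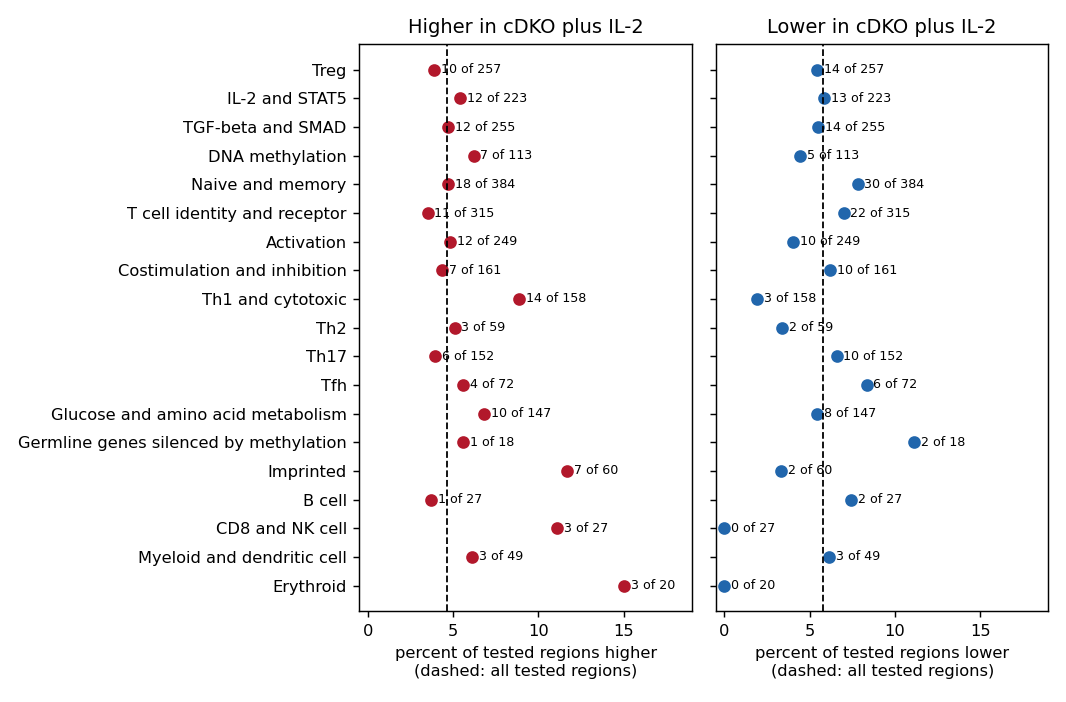
Percent of the tested regions of each gene list (y axis) that were higher (left) or lower (right) in cDKO plus IL-2 than in control, with the counts beside each point and the percent over all tested regions as a dashed line (4.66% and 5.78%). Th1 and cytotoxic genes lie at 8.86% higher and 1.90% lower, and naive and memory genes at 4.69% higher and 7.81% lower.

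The other T cell lists were near the background or small. T cell identity and receptor genes had 11 of 315 regions higher (3.49%) and 22 lower (6.98%), and Cd6, a T cell adhesion receptor, had a lower region at chr19:10813942-10814249 that ranked 27484 and 26034 in control lists. Activation genes had 12 of 249 higher (4.82%) and 10 lower (4.02%), against 4 higher and 20 lower of 370 in the deposited lists, and 2 of the 10 lower regions were in Nfatc1, the calcium-dependent factor. Costimulation and inhibition genes had 7 of 161 higher (4.35%) and 10 lower (6.21%), with 3 lower near Cd40lg, the CD40 ligand gene. Th2 genes had 3 of 59 higher (5.08%) and 2 lower (3.39%), both lower ones near the IL-4 receptor gene Il4ra. Th17 genes had 6 of 152 higher (3.95%) and 10 lower (6.58%), and a region 6.19 kb from the cytokine gene Il22 at chr10:118216067-118216405 ranked 35919 and 25789 in cDKO plus IL-2 lists. Follicular helper genes had 4 of 72 higher (5.56%) and 6 lower (8.33%). Among the lower was a region 78.4 kb from Bcl6, their master factor, at chr16:24066839-24067616 that ranked 17635 and 19581 in control lists. In the deposited cDKO plus IL-2 lists it stood at 66956 and 66184, just past the cut. Both cDKO lists and both control plus IL-2 lists held it.

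Lists tied to metabolism or to DNA methylation gave these counts. Glucose and amino acid metabolism genes had 10 of 147 regions higher (6.80%) and 8 lower (5.44%), and 6 of the 10 were the Bcat1 regions. Imprinted genes had 7 of 60 higher (11.7%) and 2 lower (3.33%) in the equal-number lists. In the deposited lists they had 2 higher and 4 lower of 108, at 0.919 and 0.656 times the shares over all regions there. The 7 higher ones of the equal-number lists lay at Gnas (3), Kcnq1 (2), Grb10 and Dlk1. The Kcnq1 region at chr7:143106899-143107494 ranked 37256 and 34827 in cDKO plus IL-2 lists and 39815 and 31830 in cDKO lists. Germline genes that methylation silences in somatic cells had 1 of 18 regions higher, at Ddx4, and 2 lower (11.1%), near Dazl and in Stk31.

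Marker lists of other blood cells held few regions. B cell genes had 1 of 27 higher and 2 lower, and myeloid and dendritic cell genes had 3 of 49 higher and 3 lower. Erythroid genes had 3 of 20 higher (15%) and 0 lower. In the deposited lists they had 1 of each of 30, at 1.65 (higher) and 0.590 (lower) times the shares over all regions there. The region at the gene end of the globin gene Hbb-bt ranked 34731 and 23719 in cDKO plus IL-2 lists and 31259 and 31798 in control plus IL-2 lists, and was in neither control list. The part of other cell types in the calls was not tested.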

How the data were processed

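ATAC-seq peak lists of 8 libraries were used, 4 of them in the comparison. The authors deposited 1 narrowPeak list per library on GRCm38 (mm10). Each deposited peak has a fold over background (a ratio), a −log10 p-value and a −log10 q-value, and the score column of the deposited lists was left out. MACS2 2.2.7.1, Bowtie2 2.4.1, Trimmomatic 0.39, SAMtools 1.3.1 and Picard are among the tools in the submitters' processing notes, with no role or order. Depth, read shifting, duplicate handling and calling settings are not in the sources used here. The values per peak are the authors' own, and peaks were ranked or filtered by them inside a list alone.

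Lists were cut, merged and called as stated above with Python 3.11.15, pandas 2.3.3 and numpy 2.4.6, and the exact permutation tests used scipy 1.17.1. A region was assigned to the smallest protein-coding RefSeq gene (GRCm38.p6) that holds its midpoint, else to the nearest within 100 kb, so an assigned gene need not be the one a region acts on. A gene end is within 1 kb of either end. Named regions were, per direction, the 12 of best rank in the weaker library among those absent from all deposited lists of the other group, with at most 1 a gene. Named list genes were up to 4 per list and direction by the same rank, together with 6 pathway genes, the genes with most calls and 2 promoters per direction. Further regions are said to be chosen after their values were seen. The regions, gene lists and rules were chosen with earlier results of these data known. Alternatives were the full lists, 32905 peaks a list, a q-value of 0.001, ranking by fold, 50% overlap, other unions, no chromosome 6 and leaving out each library.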

Additional observations from a re-analysis of the deposited data

How the results depend on the processing

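The main counts were 3170 higher and 3931 lower regions and the mean Jaccard index was 0.709. With the full deposited lists, lower regions numbered 6287 and the index was 0.630. With 32905 peaks a list the counts were 1750 higher and 1980 lower. With q-values up to 0.001 they were 2063 higher and 6034 lower, with an index of 0.640. The index was 0.684 with lists cut to 92488 peaks, 0.678 with ranking by fold and 0.624 with 50% overlap. Leaving out each library gave 5691 to 6932 higher and 5489 to 8463 lower regions, since a single library then stood for a group. Without cDKO plus IL-2 replicate 1 more regions were higher (6932) than lower (5489). Regions absent from the other group's lists numbered 695 higher and 1154 lower with those lists cut to 92488 peaks, an alternative added after seeing the data, against 146 and 644. The difference in the share at gene ends stayed positive in every alternative run, from 0.665 to 2.17 percentage points. With the full lists, ranking by fold and a q-value of 0.001 its exact permutation p was 0.667. In those runs the cDKO plus IL-2 libraries were no longer both above both control libraries. With the replicate number as a block the difference was 1.06 with an exact permutation p of 0.5, against 0.333 without the block. The sources used here do not say whether the numbers pair the libraries. The region counts and the index come from no test, so no block enters them. Unknown depth limits every call near the end of a list.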
